A study of Mus musculus with 18 samples.

Results

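In the muscles of mice flown in space and of their ground controls, 10 genes of adipose tissue were followed, out of 12393 genes that the array names by a probe set of their own. They are the secreted fat cell hormones Lep, Adipoq and Retn, the lipid droplet and fatty acid binding proteins Cidec and Fabp4, and the genes of lipid synthesis Scd1, Fasn, Thrsp, Pck1 and Mid1ip1. The genes were taken by name, through the symbol that the platform annotation gives each probe set, and not by any measured value. All 10 were on the array, through 16 probe sets in all: Fabp4 had 4, Scd1, Thrsp and Pck1 had 2 each, and the other genes had 1 each. Male C57/BL6 mice (C57BL/N6 in the study's methods) had spent 30 days aboard the Bion M1 biosatellite (BION-flown, BF), in a copy of the flight habitat on the ground (BION-ground, BG), or in standard animal facility cages (FC). The title and source labels place all 6 BF samples on Bion M1, whereas the description of BF EDL replicates 2 and 3 names Bion M2 and Bion M3, and both were taken as BF. The labels name no altered allele and no agent for any group. According to the study's methods BF and BG mice ate a paste diet while FC mice ate standard chow, so that BF vs. BG shares food and housing whereas both differ in FC, and BF tissue was taken some hours after landing and transport. The slow postural soleus and the fast extensor digitorum longus (EDL) were each hybridised as 3 muscles per group, taken here as 3 animals, which gave 18 arrays in 6 groups. Whether the soleus and the EDL of a number came from the same animal is not stated in the labels.

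Fat cells store fatty acids as triglyceride in a large lipid droplet and release hormones that report on those stores. Leptin lowers appetite, adiponectin raises fatty acid oxidation and insulin sensitivity in muscle and liver, and resistin counteracts insulin in mice. The fatty acids are made by fatty acid synthase, desaturated by stearoyl-CoA desaturase, esterified to glycerol 3-phosphate that fat cells make through phosphoenolpyruvate carboxykinase, and held in droplets coated by proteins such as Cidec. In skeletal muscle most of these genes are typical of the fat cells that lie between the fibres and along the fascia, while muscle fibres themselves take up fatty acids and burn them. In whole muscle, more fat cells and more RNA per fat cell cannot be told apart.

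The start regions of 4 of the genes are shown because they stand for the different courses described below: Lep, Adipoq and Pck1 were highest in BF soleus, while Mid1ip1 was highest in FC in both muscles. Each sequence holds the 250 bases before the annotated start, written 5′ to 3′ on the strand of the gene, from the RefSeq promoter table of build GRCm38. Capitals mark every match, on either strand, to the C/EBP consensus TTGCNNAA, to CCAAT, to TATAA, to the E-box CACGTG or to TGACG, the core of a cAMP response element.
Lep: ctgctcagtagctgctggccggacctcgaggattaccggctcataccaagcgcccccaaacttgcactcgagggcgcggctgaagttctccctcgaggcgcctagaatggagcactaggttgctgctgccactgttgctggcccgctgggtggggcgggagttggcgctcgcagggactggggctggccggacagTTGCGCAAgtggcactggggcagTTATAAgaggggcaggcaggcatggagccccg
Adipoq: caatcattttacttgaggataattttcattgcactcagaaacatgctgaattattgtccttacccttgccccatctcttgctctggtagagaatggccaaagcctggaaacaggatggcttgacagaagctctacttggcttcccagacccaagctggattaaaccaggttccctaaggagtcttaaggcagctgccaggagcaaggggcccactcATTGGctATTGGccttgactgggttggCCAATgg
Pck1: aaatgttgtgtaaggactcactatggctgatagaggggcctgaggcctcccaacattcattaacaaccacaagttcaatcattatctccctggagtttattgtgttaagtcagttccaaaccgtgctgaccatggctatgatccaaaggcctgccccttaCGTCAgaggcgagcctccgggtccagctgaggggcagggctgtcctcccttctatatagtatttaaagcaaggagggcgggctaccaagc
Mid1ip1: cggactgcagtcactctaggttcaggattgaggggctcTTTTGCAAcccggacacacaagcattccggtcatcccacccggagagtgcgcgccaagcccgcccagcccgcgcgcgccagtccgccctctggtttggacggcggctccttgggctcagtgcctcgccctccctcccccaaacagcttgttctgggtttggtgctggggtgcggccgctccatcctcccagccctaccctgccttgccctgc
They lie on the plus strand at chr6:29059971-29060220 (Lep), chr16:23146286-23146535 (Adipoq), chr2:173152823-173153072 (Pck1) and chrX:10717115-10717364 (Mid1ip1). The Lep window held the C/EBP letters TTGCGCAA from 55 to 48 bases before the start, and TATAA on both strands with overlapping letters closer to it. In the Adipoq window CCAAT occurred 3 times, 2 of them as ATTGG on the strand shown, and in the Pck1 window TGACG occurred once, on the opposite strand, from 90 to 86 bases before the start. The Mid1ip1 window held one C/EBP match, TTTTGCAA, 212 to 205 bases before the start. Of 32841 promoter windows of the same length searched, 9.6% held TTGCNNAA, 33.9% CCAAT, 22.8% TATAA, 6.0% CACGTG and 17.8% TGACG. A promoter was found in the table for 8 of the 10 genes, with 9 windows in all, and none of them held CACGTG. Fabp4 and Scd1 were not matched.

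Values are log2 signals after robust multi-array averaging (RMA), in which 1 unit is a doubling, and a gene was read on its brightest probe set. Array medians lay between 6.17 and 6.26, and arrays of one group correlated at r = 0.978 to 0.995 over all probe sets. The muscle labels fitted their markers: in BG mice the slow fibre genes Myh7 and Tnni1 were higher in soleus by 4.92 and 5.05 on the log2 scale, and the fast myosin gene Myh4 was lower there by 4.56 (limma, adjusted p = 0.00181, 8.79e-05 and 0.000773). A gene passed where limma's p-value, adjusted by the Benjamini-Hochberg method over 22626 probe sets, was under 0.05. The mean signal over 18 arrays placed Fabp4 above 99.0% of genes, Scd1 above 94.2%, Mid1ip1 above 91.1% and Adipoq above 83.1%. Lep stood above 34.1% of genes and Pck1 above 19.9%, so that their signals in the ground groups were among the dimmer ones of the array.

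In soleus, BF vs. BG asks what flight changed in mice that otherwise shared habitat and food. Flown mice had 6 of the 10 genes up-regulated and none down-regulated: Lep, Cidec, Adipoq, Retn, Scd1 and Pck1. Of all genes 23.3% passed in that comparison in either direction, and 11.1% passed as higher. The median log2 fold change of the 10 genes was 1.51, against 0.035 over all genes. BF vs. FC gave the same 6 genes as higher and Mid1ip1 as lower, where 25.1% of all genes passed and 9.02% passed as higher. In FC vs. BG, which compares the 2 kinds of ground housing and food, Mid1ip1 and Fasn were higher and none was lower, with 9.80% of genes passing and 5.78% passing as higher. The 3 comparisons share their groups pairwise, so they are not independent of each other.

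**Figure D1:**
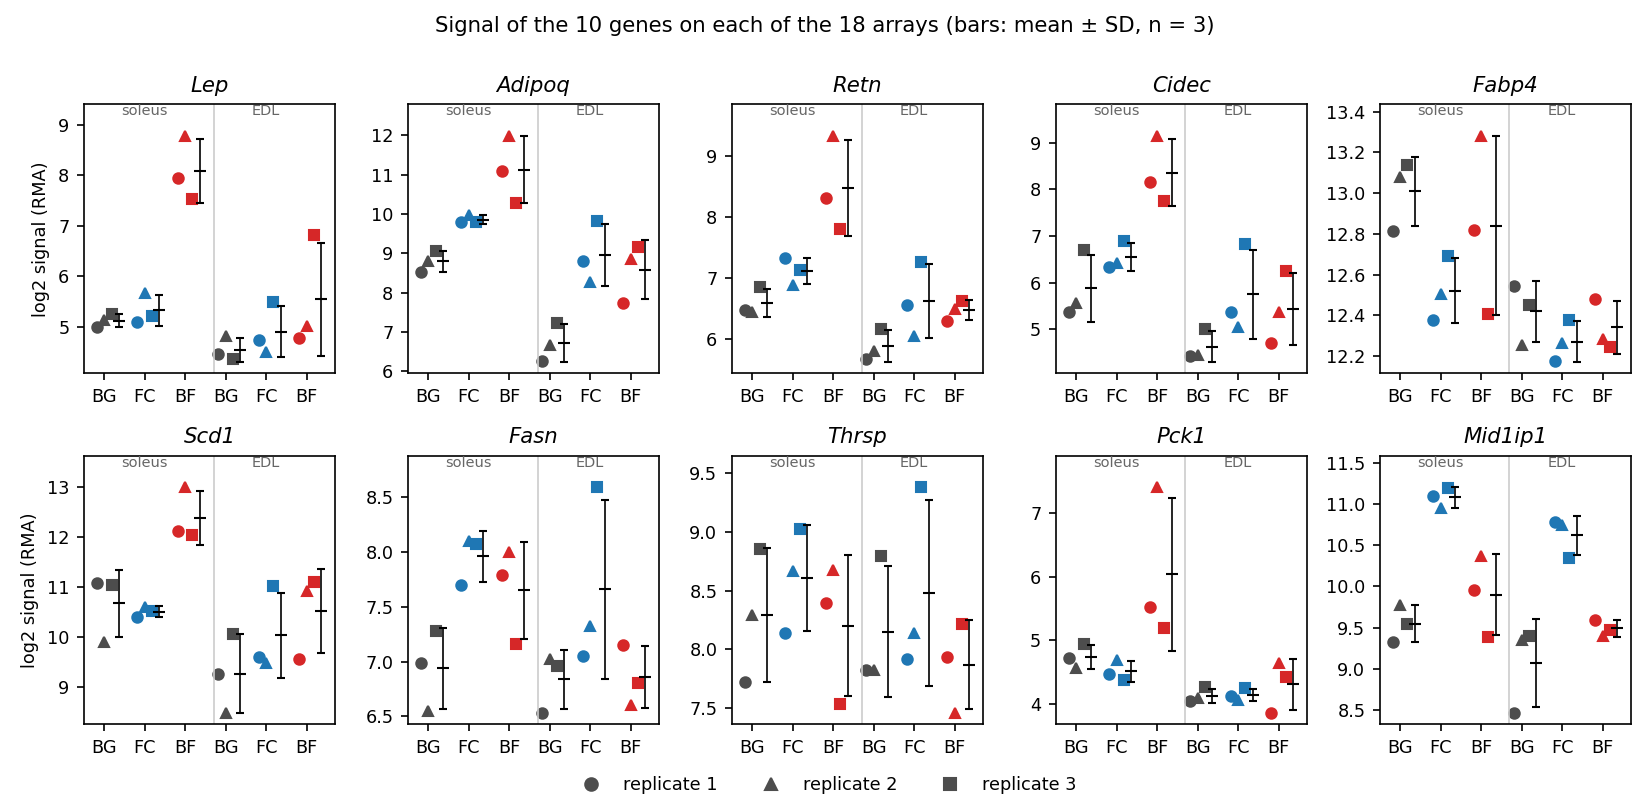
RMA log2 signal of each gene (vertical axis, a separate scale per panel) on the 18 arrays by group (horizontal axis), with symbols for replicate numbers and black bars for the group mean ± SD (n = 3). Lep in BF soleus lies between 7.53 and 8.78 and in no other group above 6.82, while Mid1ip1 lies at 10.34 or above in every FC array of both muscles.

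Leptin gave the largest change. Its soleus signal was 4.99, 5.13 and 5.25 in BG replicates 1 to 3, 5.10, 5.66 and 5.20 in FC, and 7.93, 8.78 and 7.53 in BF. The BF arrays stood clear of all other arrays, and the ground groups overlapped each other. Lep was 7.78-fold higher in BF vs. BG (log2 2.96 ± 0.41 SE, n = 3 per group, adjusted p = 0.000156) and 6.78-fold higher in BF vs. FC (2.76 ± 0.41, adjusted p = 0.000181), while FC vs. BG differed by 0.20 ± 0.41 (adjusted p = 0.807).

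Adiponectin followed a graded order. Adipoq read 8.53, 8.81 and 9.05 in BG soleus, 9.79, 9.98 and 9.81 in FC, and 11.11, 11.995 and 10.30 in BF. No 2 of the 3 groups overlapped, BG being lowest and BF highest. It was 5.05-fold higher in BF vs. BG (log2 2.34 ± 0.42, adjusted p = 0.00116) and 2.42-fold higher in BF vs. FC (1.27 ± 0.42, adjusted p = 0.0370). The step from BG to FC was 1.06 ± 0.42 on the log2 scale and did not pass (adjusted p = 0.115). The BF vs. FC call was lost without BF replicate 1, without BF replicate 2 (0.84 ± 0.42, adjusted p = 0.172) and without any single FC array.

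Resistin showed a smaller change on a dimmer signal. Retn was at 6.47, 6.45 and 6.85 in BG soleus, 7.33, 6.89 and 7.14 in FC, and 8.31, 9.34 and 7.81 in BF, again with no overlap between groups. BF vs. BG was 3.71-fold (log2 1.89 ± 0.31, adjusted p = 0.000584) and BF vs. FC 2.57-fold (1.36 ± 0.31, adjusted p = 0.00451). FC exceeded BG by 0.53 ± 0.31 and did not pass (adjusted p = 0.296).

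Of the genes of droplets and fatty acid binding, one rose and one did not pass. Cidec, whose protein fuses lipid droplets into larger ones, had soleus signals of 5.37, 5.56 and 6.70 in BG, 6.33, 6.42 and 6.89 in FC, and 8.16, 9.15 and 7.76 in BF. All BF arrays were above all ground arrays, by 5.58-fold on average over BG (log2 2.48 ± 0.47, adjusted p = 0.00157) and by 3.51-fold over FC (1.81 ± 0.47, adjusted p = 0.00965). Without BF replicate 2 the BF vs. FC difference of Cidec was 1.41 ± 0.49 (adjusted p = 0.0511).

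Fabp4, the fatty acid binding protein of fat cells, which capillary endothelium and macrophages express as well, was the brightest of the 10. It read 12.81, 13.08 and 13.14 in BG soleus, 12.38, 12.50 and 12.69 in FC, and 12.82, 13.28 and 12.41 in BF. The BF arrays spanned nearly the whole range of the ground arrays, and the difference from BG was -0.17 ± 0.17 (adjusted p = 0.487). Its other 3 probe sets differed by 0.06, 0.39 and -0.44 in BF vs. BG, and none passed.

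Scd1 and Pck1 rose with the hormones. Scd1, the desaturase that makes oleate and palmitoleate, read 11.08, 9.90 and 11.04 in BG soleus, 10.39, 10.60 and 10.52 in FC, and 12.12, 13.01 and 12.04 in BF. BF lay above both ground groups, which overlapped, by 3.28-fold over BG (log2 1.72 ± 0.47, adjusted p = 0.0164) and 3.69-fold over FC (1.88 ± 0.47, adjusted p = 0.00824). The second, dimmer probe set of Scd1 passed as well, with 0.89 ± 0.27 in BF vs. BG (adjusted p = 0.0270). The BF vs. BG call on the brighter set was lost without BF replicate 2 (1.40 ± 0.51, adjusted p = 0.0662) and without BG replicate 2, the low array of that group (adjusted p = 0.0861).

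Pck1, the cytosolic phosphoenolpyruvate carboxykinase, was at 4.72, 4.57 and 4.94 in BG soleus, 4.47, 4.68 and 4.38 in FC, and 5.53, 7.41 and 5.19 in BF. The 3 BF arrays were the highest, with replicate 2 far above the other pair. Pck1 was 2.46-fold higher in BF vs. BG (log2 1.30 ± 0.37, adjusted p = 0.0192) and 2.89-fold higher in BF vs. FC (1.53 ± 0.37, adjusted p = 0.00636). Without replicate 2 the BF vs. BG difference was 0.61 ± 0.19 and still passed (adjusted p = 0.0320), while the call was lost without BG replicate 2. With ordinary one-way contrasts in each muscle alone, Pck1 passed neither in BF vs. BG nor in BF vs. FC (adjusted p = 0.183 and 0.135). Its second probe set lay between 2.48 and 2.92 on all 18 arrays, near the bottom of the array signals, which began at 2.11, and differed by 0.09 ± 0.09 (adjusted p = 0.479).

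The genes that drive the making of new fatty acids took another course. Mid1ip1 encodes a protein that makes acetyl-CoA carboxylase assemble into its active polymer. It read 9.33, 9.78 and 9.55 in BG soleus, 11.09, 10.95 and 11.20 in FC, and 9.95, 10.37 and 9.39 in BF. The FC arrays were above all others, and BF overlapped BG. FC vs. BG was 2.89-fold (log2 1.53 ± 0.24, adjusted p = 0.00133), and in BF vs. FC the gene fell by 1.18 on the log2 scale (SE 0.24, adjusted p = 0.00195). BF vs. BG gave 0.35 ± 0.24 (adjusted p = 0.299).

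Fasn, fatty acid synthase, was at 6.98, 6.55 and 7.28 in BG soleus, 7.70, 8.10 and 8.08 in FC, and 7.79, 7.9999 and 7.16 in BF. FC did not overlap BG, and BF overlapped both. Only FC vs. BG passed, at 2.03-fold (log2 1.02 ± 0.32, adjusted p = 0.0459), and that call was lost in 11 of the 18 fits that left out 1 array, among them each fit without a BG or FC soleus array, with a highest adjusted p of 0.165. BF vs. BG was 0.71 ± 0.32 (unadjusted p = 0.0381, adjusted p = 0.114).

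Thrsp, the Spot 14 protein of lipogenic tissues and a relative of Mid1ip1, varied as much within groups as between them. It read 7.72, 8.29 and 8.85 in BG soleus, 8.14, 8.67 and 9.03 in FC, and 8.40, 8.68 and 7.53 in BF, and every pair of groups overlapped. The differences were -0.09 ± 0.40 for BF over BG, 0.32 ± 0.40 for FC over BG and -0.41 ± 0.40 for BF over FC (adjusted p = 0.900, 0.653 and 0.495).

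**Figure D2:**
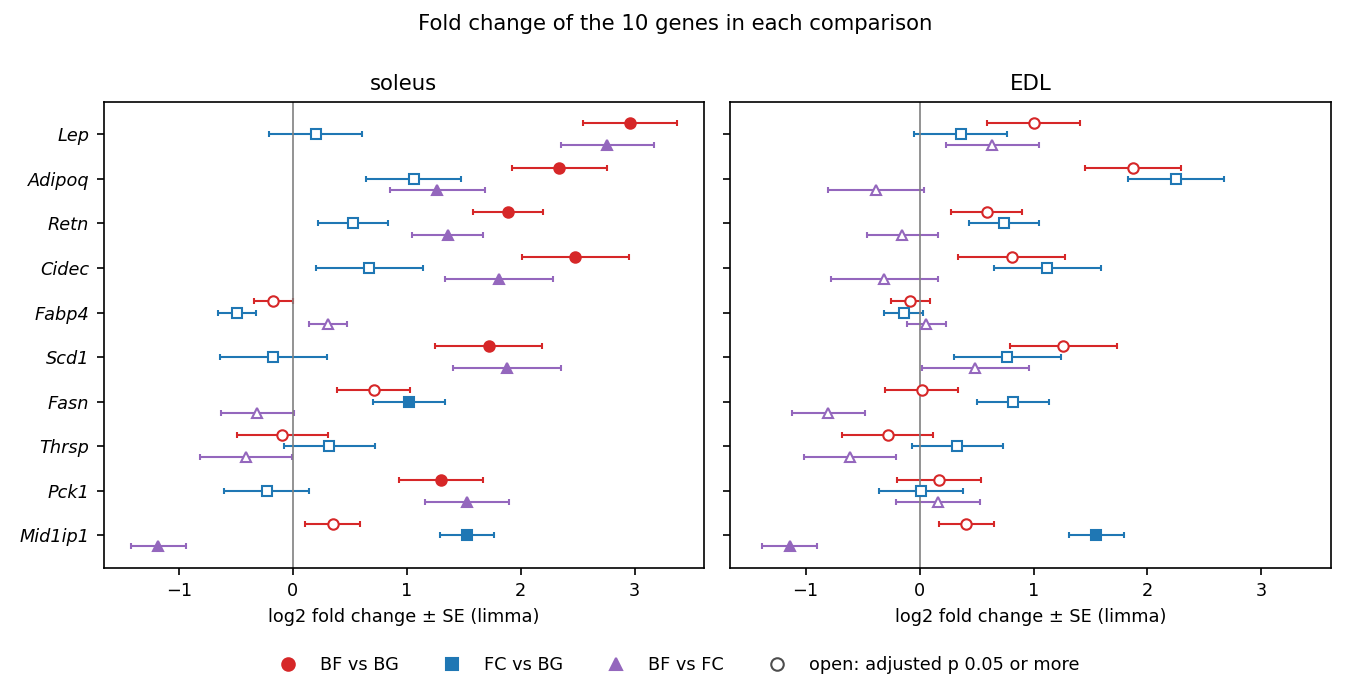
Log2 fold change of each gene (horizontal axis, with bars of 1 SE from limma) in the 3 comparisons of BF, BG and FC mice, for soleus on the left and EDL on the right, with filled symbols where the adjusted p was under 0.05. In soleus 6 genes are filled for BF vs. BG, whereas in EDL the filled symbols belong to Mid1ip1 alone.

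In EDL, none of the 10 genes passed in BF vs. BG with limma, where 0.379% of all genes did, and 3 had an unadjusted p under 0.05: Lep, Adipoq and Scd1. The share of all genes with an unadjusted p under 0.05 alone was not counted, here or below. By the threshold of the study's methods, over 2-fold with an unadjusted p under 0.05, Adipoq and Scd1 counted as higher, against 0.468% of all genes. In FC vs. BG Mid1ip1 passed, where 0.0323% of genes did, and Adipoq, Cidec and Mid1ip1 were past the methods' threshold, against 0.420% of genes. In BF vs. FC Mid1ip1 passed as lower and was past the methods' threshold too, where 3.53% and 0.734% of genes were called.

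Mid1ip1 repeated its soleus order in EDL. It read 8.46, 9.35 and 9.40 in BG, 10.78, 10.75 and 10.34 in FC, and 9.59, 9.39 and 9.48 in BF. FC was again above all other arrays of the muscle. FC vs. BG was 2.93-fold (log2 1.55 ± 0.24, adjusted p = 0.0387), and BF vs. FC fell by 1.14 (SE 0.24, adjusted p = 0.0145). The FC vs. BG call was lost in 10 of the 18 fits that left out 1 array, and the difference lay between 1.25 and 1.72 in all settings tried. The BF vs. FC call was lost without FC replicate 2.

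Adipoq was lowest in BG EDL too, at 6.28, 6.66 and 7.23, against 8.82, 8.26 and 9.83 in FC and 7.74, 8.87 and 9.16 in BF. BG did not overlap either of the others, which overlapped each other. BF exceeded BG by 1.87 ± 0.42 on the log2 scale and FC exceeded BG by 2.25 ± 0.42, with adjusted p = 0.0670 and 0.0605. Both comparisons use the same BG arrays.

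Lep in EDL was near its soleus ground level, at 4.46, 4.82 and 4.35 in BG, 4.73, 4.50 and 5.48 in FC, and 4.78, 5.02 and 6.82 in BF. A single BF array, replicate 3, stood above the rest. Lep was 1.99-fold higher in BF vs. BG and did not pass (unadjusted p = 0.0265, adjusted p = 0.343).

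Scd1 in EDL read 9.25, 8.47 and 10.05 in BG, 9.60, 9.48 and 11.01 in FC, and 9.56, 10.91 and 11.09 in BF, with overlap between all groups. The BF vs. BG difference was 1.26 ± 0.47 (unadjusted p = 0.0163, adjusted p = 0.296). Cidec in EDL was at 4.42 to 5.01 in BG, 5.05 to 6.84 in FC and 4.71 to 6.24 in BF, and Retn at 5.68 to 6.18, 6.05 to 7.26 and 6.30 to 6.64.

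Fasn, Thrsp, Pck1 and Fabp4 did not pass in any comparison of EDL groups. Fasn was at 6.53 to 7.03 in BG, 7.05 to 8.60 in FC and 6.61 to 7.15 in BF, so that FC again lay above BG (0.82 ± 0.32, unadjusted p = 0.0190, adjusted p = 0.322). Pck1 remained between 3.86 and 4.64 on all 9 EDL arrays, with BF vs. BG at 0.17 ± 0.37. FC replicate 3 was the highest EDL array for 5 of the 10 genes, among them Adipoq at 9.83, Cidec at 6.84, Fasn at 8.60 and Thrsp at 9.39.

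Whether flight changed a gene more in one muscle than in the other was tested as the difference of the log2 fold changes, soleus minus EDL. For BF vs. BG, Lep passed, with a change larger in soleus by 1.96 ± 0.58 (adjusted p = 0.0436), where 9.26% of all genes passed. The call held only without soleus BF replicate 3, EDL BF replicate 3 or EDL FC replicate 3 and was lost in the other 15 of the 18 fits that left out 1 array, with the value between 1.58 and 2.60 over all settings. Retn, Cidec and Pck1 had unadjusted p under 0.05 there without passing, at 1.30 ± 0.44, 1.67 ± 0.66 and 1.13 ± 0.52 (adjusted p = 0.0704, 0.116 and 0.173). Adipoq and Scd1 differed by 0.47 ± 0.60 and 0.45 ± 0.67 (adjusted p = 0.645 and 0.699). For BF vs. FC, none of the 10 passed with limma, where 2.04% of all genes did. The largest values were 2.12 ± 0.58 for Lep and 2.12 ± 0.66 for Cidec. An unadjusted p under 0.05 was reached there by 5 of the 10, and all genes were not counted at that threshold. For FC vs. BG no gene of the 10 and 0% of all genes passed with limma, no gene of the 10 had an unadjusted p under 0.05, and the value for Mid1ip1 was -0.02 ± 0.34.

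Between the muscles of one group, all 10 genes had higher mean signals in soleus than in EDL in each of the 3 groups. Some of these differences were smaller than their SE, as for Fasn (0.10 ± 0.32) and Thrsp (0.14 ± 0.40) in BG, and the genes are not independent of each other. The median difference of the 10 was 0.60 in BG, 0.44 in FC and 1.80 in BF, against -0.055, 0.029 and 0.005 over all genes. In BG, Adipoq (log2 2.07 ± 0.42, adjusted p = 0.00275) and Fabp4 (0.60 ± 0.17, adjusted p = 0.0238) passed as higher, where 17.0% of all genes passed and 8.30% passed as higher. In FC none passed with limma and none had an unadjusted p under 0.05, while 16.4% of all genes passed. In BF the 6 genes that rose in soleus passed as higher there than in EDL, from 2.92 ± 0.47 for Cidec to 1.74 ± 0.37 for Pck1, where 12.4% of all genes passed and 5.79% passed as higher. The difference in BF was 2.54 ± 0.41 for Lep, 2.54 ± 0.42 for Adipoq and 1.87 ± 0.47 for Scd1. Soleus and EDL values were treated as unpaired.

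One BF soleus array carried the highest values. Replicate 2 was the highest soleus array for 7 of the 10 genes, the 6 that rose and Fabp4, and replicate 3 was the lowest BF array for each of these 7 genes. Without replicate 2, Lep, Adipoq, Retn, Cidec and Pck1 passed in BF vs. BG, 5 of 10, and the median of the 10 genes was 1.01. In BF vs. FC without it, Lep, Retn, Scd1 and Pck1 passed as higher, 4 of 10, and Mid1ip1 as lower. The share of all genes passing was not computed without that array, here or for the lists below. Lep was 2.61 ± 0.43 above BG without that array (adjusted p = 0.000738).

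Over all 18 arrays, with the mean of each muscle taken off, the genes whose signals ran closest to a given gene were found by Pearson's r, as a description in which the points share their group means. For Lep they were Ntrk2 (r = 0.96), Tmem45b (0.94) and Ptger3 (0.92), and for Adipoq Hp (0.92), Cdo1 (0.89) and Cyp2e1 (0.87). For Retn they were Cdo1 (0.95), Cebpa and Gpx1 (0.93 each), and for Cidec Gsta3 and Cdo1 (0.94 each) and Gpx1 (0.92). For Scd1 they were Orm1 (0.91), Rbp4 and Nop56, and for Pck1 Nolc1 (0.95), Pvr and Fbxo4. For Fasn they were Limd2 (0.88), C1qtnf1 and Tkt, a transketolase of the pentose phosphate pathway. For Mid1ip1 they were Tmx1, Rnf145 (0.91 each) and Cys1, for Thrsp Nid2 (0.87), Prkra and Cryz, and for Fabp4 Srgn (0.87), Rab1a and Ube2n. Cdo1 thus stood among the nearest 3 for Adipoq, Retn and Cidec.

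In soleus the hormones rose beside other genes of a list of secreted adipokines and acute phase proteins. Of 16 measured, 10 were higher and none lower in soleus BF vs. BG, where 11.1% of all genes passed as higher, with a median of 0.55. The 4 largest were Orm1 (log2 2.48 ± 0.36, adjusted p = 0.000245), Hp (2.41 ± 0.45, adjusted p = 0.00150), Lcn2 (2.07 ± 0.46, adjusted p = 0.00425) and Agt (1.88 ± 0.21, adjusted p = 2.45e-05), which encode orosomucoid, haptoglobin, lipocalin-2 and angiotensinogen. Without BF replicate 2 the count was 6. In EDL only Lcn2 of this list passed, with 2.94 ± 0.46 in BF vs. BG (adjusted p = 0.00848), where none of 15 fat cell markers passed. Past the methods' threshold as higher in EDL BF vs. BG were 3 of the 16, against 0.468% of all genes in either direction. Of the 15 fat cell markers 1 was past it, Orm1 at 2.22-fold, which is in both lists. The cells that made these transcripts were not tested.

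Of 11 measured receptors and signalling genes for leptin and adiponectin, 1 was higher and 3 were lower in soleus BF vs. BG, where 23.3% of all genes passed. Ppara, the nuclear receptor of fatty acid oxidation that adiponectin signalling engages, fell by 2.06 (SE 0.27, adjusted p = 0.000112), and Cdh13, the T-cadherin that binds adiponectin, fell by 0.96 (SE 0.15, adjusted p = 0.000358). Sh2b1, an adaptor of leptin signalling, fell by 0.49 (SE 0.14, adjusted p = 0.0166), and Jak2, the kinase of the leptin receptor, rose by 0.46 (SE 0.14, adjusted p = 0.0298). The leptin receptor gene Lepr and the adiponectin receptor gene Adipor2 differed by 0.40 and 0.13 (adjusted p = 0.0595 and 0.406). The dimmer probe sets of Lepr differed by 0.19 and -0.04 (adjusted p = 0.398 and 0.909). The 3 probe sets of the adiponectin receptor gene Adipor1 disagreed: the brightest pair differed by -0.02 and -0.09 (adjusted p = 0.943 and 0.674), while the dimmest was higher by 1.10 ± 0.20 in BF vs. BG and by 0.92 ± 0.20 in BF vs. FC (adjusted p = 0.00109 and 0.00288). The brighter probe set of Jak2 was also higher in FC vs. BG, by 0.51 (adjusted p = 0.0308), and differed by -0.05 in BF vs. FC (adjusted p = 0.843). The dimmer probe set of Jak2 differed by 0.37 in BF vs. BG and did not pass (adjusted p = 0.0747), while it was higher by 0.69 in BF vs. FC (adjusted p = 0.00252).

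**Figure D3:**
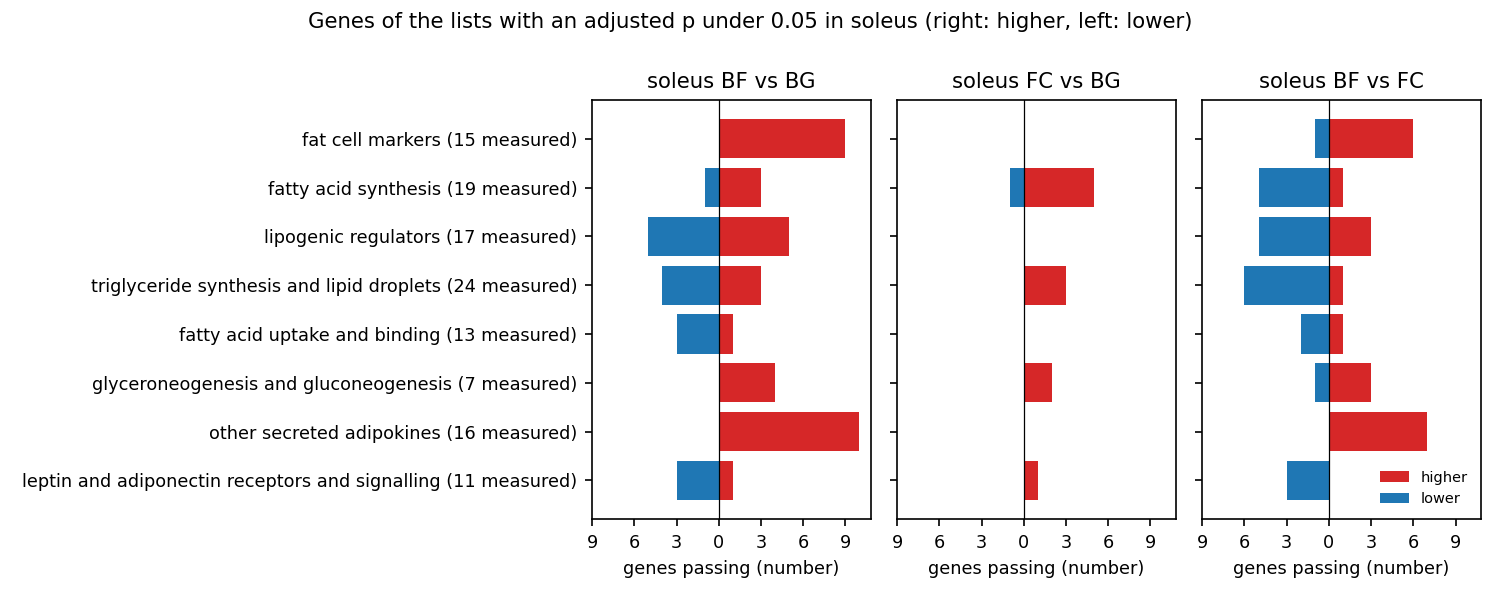
Number of genes passing (horizontal axis, adjusted p under 0.05) as higher to the right and lower to the left, for 8 gene lists in the 3 comparisons of soleus groups. In BF vs. BG, 10 of 16 other adipokines and 9 of 15 fat cell markers are higher and none is lower, while 5 of 17 lipogenic regulators go each way. Of all genes 23.3% passed in that comparison, and 11.1% passed as higher.

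The enzymes of fatty acid synthesis other than the 10 genes did not move as a block. Of 19 measured, 3 were higher and 1 lower in soleus BF vs. BG (median 0.04), where 23.3% of all genes passed. In FC vs. BG 5 were higher and 1 lower (median 0.19), where 9.80% of all genes passed. In BF vs. FC 1 was higher and 5 lower (median -0.04), where 25.1% passed. Acss2, which makes acetyl-CoA from acetate, fell by 1.51 in BF vs. BG (SE 0.24, adjusted p = 0.000480) and by 1.70 in BF vs. FC (SE 0.24, adjusted p = 0.000131). Tkt rose by 0.94 in BF vs. BG and by 0.81 in FC vs. BG (adjusted p = 0.00742 and 0.0278), and the fatty acid elongase Elovl5 fell by 0.62 in BF vs. FC (adjusted p = 0.0144). The elongase gene Elovl1 was higher by 0.74 in FC vs. BG (adjusted p = 0.0256), and the acetyl-CoA carboxylase gene Acacb fell by 0.66 in BF vs. FC (adjusted p = 0.0424).

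Among 17 regulators of lipogenesis, 5 were higher and 5 lower in soleus BF vs. BG, where 23.3% of all genes passed. None passed in FC vs. BG with limma, where 7 had an unadjusted p under 0.05. Cebpa and Cebpd, C/EBP factors of fat cell differentiation, rose by 1.32 and 1.30 (adjusted p = 0.00172 and 0.00338), and Cebpb fell by 0.95 (adjusted p = 0.00717). Mlxipl, the carbohydrate response factor ChREBP, which acts on Fasn and its partners, fell by 0.92 in BF vs. BG and by 1.36 in BF vs. FC (adjusted p = 0.00266 and 0.000101). The sterol response factor gene Srebf1 fell by 0.86 in EDL BF vs. FC (adjusted p = 0.0250).

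Of 24 genes of triglyceride synthesis and lipid droplets, 3 were higher and 4 lower in soleus BF vs. BG, where 23.3% of all genes passed. In FC vs. BG 3 were higher, where 5.78% of all genes passed as higher. In BF vs. FC 1 was higher and 6 lower, where 25.1% of all genes passed. The acyltransferase gene Gpam fell by 0.97 and the monoglyceride lipase gene Mgll by 0.96 in BF vs. BG (adjusted p = 0.0282 and 0.00157), while the hormone-sensitive lipase gene Lipe rose by 0.85 (adjusted p = 0.0150). Cidea, a relative of Cidec, fell by 0.86 (adjusted p = 0.0278). G0s2, an inhibitor of triglyceride lipase, was higher by 1.48 in FC vs. BG and fell by 1.80 in BF vs. FC (adjusted p = 0.0217 and 0.00291).

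Of 13 measured genes of fatty acid uptake and binding, 1 was higher and 3 were lower in soleus BF vs. BG, where 23.3% of all genes passed. The muscle fatty acid binding protein Fabp3 fell by 1.36 (adjusted p = 3.24e-05), lipoprotein lipase, Lpl, by 0.89 (adjusted p = 0.000387) and the transporter Cd36 by 0.75 (adjusted p = 0.00314). Angptl4, a secreted inhibitor of lipoprotein lipase, was higher by 1.70 ± 0.45 in BF vs. FC (adjusted p = 0.0111). In soleus BF vs. BG, where 11.1% of all genes passed as higher, 4 of 7 genes of glyceroneogenesis and gluconeogenesis beside Pck1 were higher and none lower. They were Fbp2 (2.05 ± 0.36, adjusted p = 0.000857), a fructose bisphosphatase of muscle, the glycerol 3-phosphate dehydrogenases Gpd1 (1.99 ± 0.33, adjusted p = 0.000565) and Gpd2 (1.16 ± 0.18, adjusted p = 0.000375), and pyruvate carboxylase, Pcx (0.51 ± 0.16, adjusted p = 0.0300). Between the muscles of BG mice, where 17.0% of all genes passed, none of the 7 was higher in soleus and 4 were lower. The summed linear signal of the 7 was 638 to 801 in BG soleus and 2563 to 3603 in BG EDL. On BF soleus replicates 1 to 3 the sum was 2388, 1205 and 1994. Replicate 2, the highest of them for Pck1, was thus the lowest for this list.

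Some markers of fat cells outside the 10 genes rose with the 6 in soleus. Of 15 measured, 9 were higher and none lower in soleus BF vs. BG (median 0.85), where 11.1% of all genes passed as higher. Among the 9 were Nnat (2.65 ± 0.57, adjusted p = 0.00387), Orm1, Gpd1 and Ces1d (1.73 ± 0.33, adjusted p = 0.00179). With limma none passed in soleus FC vs. BG, where 4 had an unadjusted p under 0.05, or in EDL BF vs. BG, where 4 had. Without BF replicate 2, 8 were higher and 1 lower. In soleus BF vs. FC, where 25.1% of all genes passed and 9.02% passed as higher, 6 were higher and 1 lower. The lower one was Dgat2, which fell by 1.14 (adjusted p = 0.00211), and without BF replicate 2 the higher ones were 3. Of the defining markers, Aoc3 rose by 1.34, Cebpa by 1.32 and Pparg by 0.66 (adjusted p = 0.00828, 0.00172 and 0.0321), and Plin1, Cfd and Adrb3 were not analysed here. Pparg lost its call without BF replicate 2, and in BF vs. FC the number of defining markers passing as higher went from 2 to 0 without that array. The summed linear signal of the 15 markers was 6953 to 8016 in BG, 8835 to 10313 in FC and 9350 to 10539 in BF soleus, and that of the 3 defining ones 235 to 301, 309 to 382 and 382 to 1069. The value of 1069 was that of BF soleus replicate 2, and the other BF soleus arrays had 538 and 382. In EDL the 15 markers summed to 7973 to 10779 in BG, 7282 to 10697 in FC and 9255 to 10183 in BF. The 3 defining ones summed there to 157 to 200, 204 to 250 and 186 to 266. Between the muscles of BG mice, where 17.0% of all genes passed, 1 of the 15 was higher in soleus and 3 were lower. Adipoq was higher in soleus there. Neither the sum nor the mean of the 15 is read here as an amount of fat cells, and how far either follows that amount was not tested. The part of these markers in the change of the 6 genes was not tested.

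**Figure D4:**
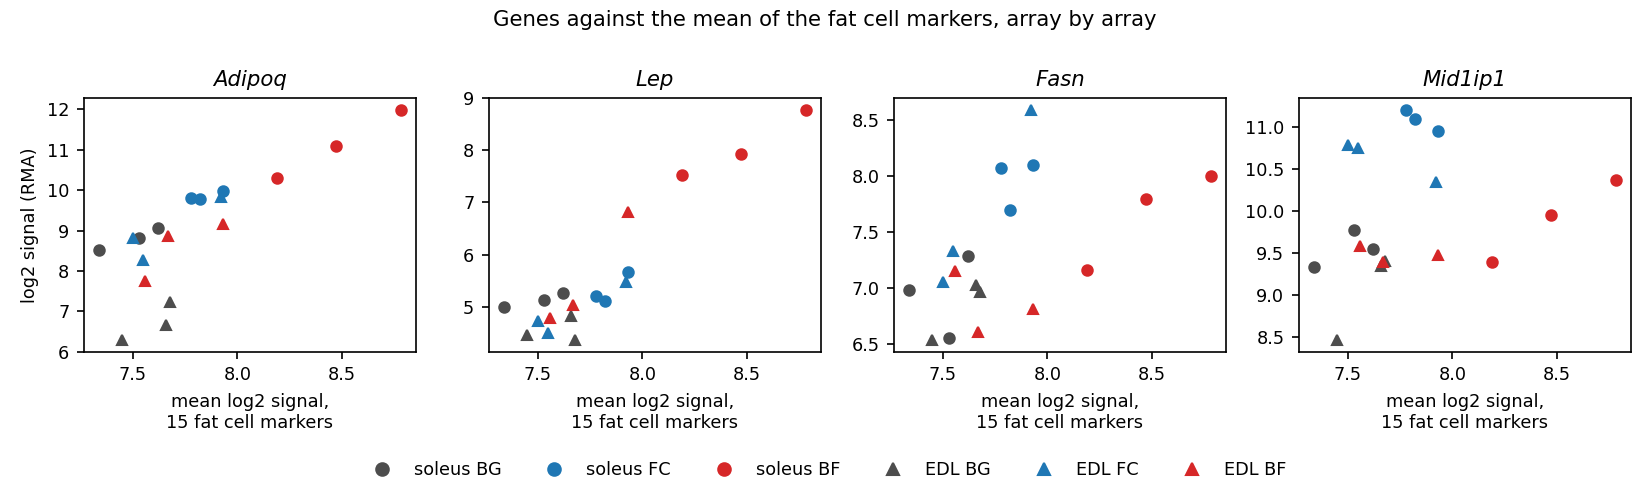
RMA log2 signal of Adipoq, Lep, Fasn and Mid1ip1 (vertical axes) on each array against the mean log2 signal of 15 fat cell markers on the same array (horizontal axis), circles for soleus and triangles for EDL, coloured by group. The marker mean runs from 8.19 to 8.78 on the BF soleus arrays and from 7.34 to 7.93 on all others, and Mid1ip1 is highest on FC arrays with marker means between 7.50 and 7.93.

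Array by array, the mean log2 signal of the 15 markers was 7.34, 7.53 and 7.62 in BG soleus, 7.82, 7.93 and 7.78 in FC, and 8.47, 8.78 and 8.19 in BF. The order of the BF arrays, with replicate 2 highest and replicate 3 lowest, was that of Lep, Adipoq, Retn, Cidec, Scd1 and Pck1. The marker means of skin (6.07, 6.58 and 5.06 in BF replicates 1 to 3), blood (5.50, 5.71 and 5.36) and endothelium (7.27, 7.36 and 6.99) had the same order. Those of nerve, macrophages, fat progenitors and skeletal muscle were highest on replicate 2 as well, but lowest on replicate 1. The brown fat mean was lowest on replicate 2. With 3 arrays, an order can be shared by chance. In EDL the marker mean was 7.45 to 7.68 in BG, 7.50 to 7.92 in FC and 7.56 to 7.93 in BF, with replicate 3 highest in FC and in BF.

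Markers of other cell types were counted in BF vs. BG in soleus, where 23.3% of all genes passed and 11.1% passed as higher. Of 5 brown fat markers 1 was higher and 2 were lower, and Ucp1, the uncoupling protein of brown fat, had signals between 3.62 and 4.22 on all 18 arrays. Of 4 peripheral nerve markers 3 were higher, and of 8 macrophage markers only Cd68 (3.40 ± 0.39, adjusted p = 3.57e-05). Of 7 endothelial markers 4 were lower and none higher, led by Kdr, which fell by 0.94 (adjusted p = 0.00175), and Vwf fell by 1.84 in BF vs. FC (adjusted p = 3.90e-05). Of 8 fat progenitor markers 1 was higher, Ebf2 at 0.54 ± 0.15 (adjusted p = 0.0157), of 7 skin markers 1, Krt1 at 0.55 ± 0.16 (adjusted p = 0.0243), and of 4 blood markers 2, S100a8 at 1.07 ± 0.33 and Hba-a1 at 0.32 ± 0.11 (adjusted p = 0.0270 and 0.0429). Without BF replicate 2 the markers passing as higher were 1 for nerve, 0 for fat progenitors, 0 for skin and 1 for blood. The summed linear signal of the skin markers was 542 and 913 on BF soleus replicates 1 and 2, 255 on replicate 3 and 232 to 292 on the ground soleus arrays, and 3990 on BG EDL replicate 2. Of 12 skeletal muscle markers the fast myosin gene Myh4 rose by 4.26 (SE 0.79, adjusted p = 0.00143) and myoglobin, Mb, fell by 0.30 (adjusted p = 0.0346). The part of these cell types in the values of the 10 genes was not tested.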

How the data were processed

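Total RNA of soleus and EDL from BF, BG and FC mice (3 arrays per group and muscle, 18 in all) was hybridised to an Affymetrix mouse GeneChip. The deposited values are log2 signals per probe set, which the authors made by RMA in Partek, with background correction, quantile normalization across arrays and summary of probes. RMA sets all arrays to one distribution, so a shift of all genes together cannot be seen. Arrays carry no read depth, and the precision rests on 3 arrays per group. Of 22690 probe sets, 64 controls were left out, 20380 of the rest named 1 gene in the platform annotation, 691 named several and 1555 none. No probe set naming several genes was read.

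One mean per group was fitted to 22626 probe sets with limma 3.58.1 in R 4.3.3 (lmFit, contrasts.fit, eBayes, 12 residual and 5.1 prior degrees of freedom), and p-values were adjusted by the Benjamini-Hochberg method in each of 12 contrasts. Where a gene had several probe sets, the brightest over the 18 arrays was read. In EDL the threshold of the study's methods (over 2-fold, unadjusted p under 0.05) was counted too. The fit was tested on simulated data. The study's methods give 3 muscles of each kind per group, taken here as separate animals. The p-values rest on the spread within groups, pooled over the 6 groups of both muscles. If soleus and EDL came from the same animals, the 12 residual degrees of freedom are not all independent. The 10 genes and the 17 gene lists were chosen with earlier results of these data known, so no list is independent evidence of a direction. The genes named were all 10, the 3 nearest genes of each by correlation, and of each list some of up to 4 genes per soleus comparison with the largest change among those passing. Other genes of the lists, those named with a value that did not pass, the muscle identity markers and Ucp1 were chosen after their values were seen. Alternatives were array centring, a second quantile normalization, fits by muscle, ordinary contrasts, other variance priors, array weights, a signal filter, averaged probe sets, a replicate block, leaving out each array and a 2-fold limit. Within each muscle, replicate numbers were compared between conditions by correlating deviations from group means. Of 18 same-number pairs 7 had r over 0.1 (range -0.13 to 0.30), and they were not treated as pairs. The check did not compare soleus with EDL, so it cannot tell whether a number stands for the same animal in both muscles.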

Additional observations from a re-analysis of the deposited data

Results flagged for a closer look

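The response of Lep to flight differed between the muscles. Lep was 7.78-fold higher in BF vs. BG soleus and 1.99-fold in EDL, and the test of the difference of the log2 fold changes gave 1.96 ± 0.58 (limma interaction contrast, adjusted p = 0.0436). All 3 soleus BF arrays were above all BG arrays, while in EDL 1 BF array, replicate 3 at 6.82, exceeded the others. The adjusted p ranged from 0.00314 to 0.106 over the other settings, and 8 of 25 kept it under 0.05.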

How the results depend on the processing

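Array number and the dim signals of Lep and Pck1 limit these results. Of 3120 values of single genes recomputed under other settings, 73 lost a call, 50 gained one and the other 2997 did neither, and no value that passed changed direction, while those that passed in neither fit could change sign. All 10 genes passed the signal filter. The 6 calls of soleus BF vs. BG, the 7 of soleus BF vs. FC and the 6 of soleus vs. EDL in BF stayed within 1.5 times of their number under every setting, except that ordinary one-way contrasts left 3 in soleus BF vs. FC. These contrasts left 1 gene in soleus FC vs. BG and 0 in both EDL FC vs. BG and EDL BF vs. FC. A second quantile normalization left 0 genes in EDL FC vs. BG and 0 in the muscle difference of BF vs. BG, and fitting each muscle alone left 0 in EDL FC vs. BG. The trended, robust prior left 1 gene in soleus FC vs. BG and 0 in the muscle difference of BF vs. BG. Averaged probe sets left 1 in soleus FC vs. BG, and a 2-fold limit left 1 in soleus vs. EDL in BG. Array weights gave 4 genes in soleus FC vs. BG, 2 in EDL FC vs. BG, 4 and 5 in the muscle differences of BF vs. BG and BF vs. FC, and 1 in soleus vs. EDL in FC. The cause of these shifts was not tested. For these settings, and for the block and the left-out arrays below, the share of all genes passing was not computed. Their counts therefore cannot be set against the whole array.

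With replicate number as a block within muscle, for samples that share only a number, 1 gene passed in EDL BF vs. BG (Adipoq, adjusted p = 0.0318), 0 in EDL FC vs. BG and 1 in the muscle difference of BF vs. FC, and the counts in soleus were 6, 2 and 7. Under the block Fabp4 lost its call in soleus vs. EDL in BG (adjusted p = 0.331) and Scd1 gained one (adjusted p = 0.0414), while in soleus FC vs. BG Fasn lost and Adipoq gained one (adjusted p = 0.0562 and 0.0498).

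Leaving out 1 array at a time gave 4 to 7 genes in soleus BF vs. BG, 1 to 3 in soleus FC vs. BG, 5 to 8 in soleus BF vs. FC, 0 to 1 in EDL BF vs. BG, 0 to 2 in EDL FC vs. BG, 0 to 1 in EDL BF vs. FC, 0 to 3 in the muscle difference of BF vs. BG, 0 to 3 in that of BF vs. FC, 1 to 4 in soleus vs. EDL in BG and 5 to 8 in soleus vs. EDL in BF.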
